A study of Mus musculus with 8 samples.

Results

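The 10 genes described here, Cdkn1a, Rbl2, Lats2, Tgfbr2, Rhoc, Mbd2, Casp2, Ei24, Irf2 and Akt1, are published targets of the miRNA seed family that dominates mouse embryonic stem (ES) cells, the miR-290 and miR-302 clusters. They were chosen by name, and all 10 were on the array, with 16 of its 55681 non-control probes and 10 of its 36163 gene names. RNA came from the mouse ES cell line E14Tg2A (strain 129/Ola) at 4 points of neuralization in chemically defined medium: ES cells at 0 days in vitro (DIV), grown with serum and LIF, epiblast-like aggregates (ELA) at 2 DIV, neural progenitor cells (NPC) at 6 DIV and, at 10 DIV, a later culture of neural precursors (NPC/Neu). RNA co-precipitated from the cytosolic fraction with an antibody to all Argonaute (Ago) proteins (clone 2A8), called Ago-RNA, and total RNA of every stage were each hybridized to 1 one-color array, which makes 8 arrays. RNA of 3 independent experiments was pooled on each array, so no group has a replicate and no p-value is given, and precision is limited by how few arrays there are. Arrays of a control immunoprecipitation were not used here, so binding to the beads alone was not measured in these values.

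Ago proteins carry a miRNA to mRNAs whose 3′ untranslated region (UTR) pairs with bases 2 to 8 of the miRNA, the seed, and the bound mRNA is usually translated less or degraded. The miR-290 cluster is abundant in pluripotent cells and the miR-302 cluster in primed, epiblast-like cells, and both carry the same seed. The family is known for holding down the brakes on entry into S phase, among them Cdkn1a, Rbl2 and Lats2, and for limiting apoptosis and mesenchymal change through targets such as Casp2, Ei24, Tgfbr2 and Rhoc.

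The mature miRNAs show what the targets have in common. Of the 7 listed here (RefSeq, GRCm38.p6 table), 5 share the seed AAGUGCU, and miR-290a-3p and miR-291b-3p differ from it at the last seed base. The seed is in capitals.
miR-291a-3p: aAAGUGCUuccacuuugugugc
miR-294-3p: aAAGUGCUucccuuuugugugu
miR-295-3p: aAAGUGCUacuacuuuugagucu
miR-302b-3p: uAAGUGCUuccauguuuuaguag
miR-302d-3p: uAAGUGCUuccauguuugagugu
miR-290a-3p: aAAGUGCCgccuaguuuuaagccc
miR-291b-3p: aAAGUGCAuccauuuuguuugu

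The 3′ UTR word that pairs with this seed is AGCACTT. It was searched on the transcript strand in 1 transcript per gene (GENCODE vM1, mm9), that with the longest coding sequence. All 10 targets held it, against 11.96% of 19641 genes with a 3′ UTR. In 6 of 10 it was followed by A, which makes an 8-base match that 2.41% of genes held. Since the genes are published targets of this seed, the matches describe them and are not independent evidence of binding. The word shares 6 of its bases with the match of the miR-17 seed (GCACTTT), so a match is not particular to 1 family. The 3′ UTRs of the targets were also longer than most, with a median of 1282.5 bases against 732 over all genes, and 6 of the 10 fell in the longest of 3 length classes of equal size, where 26.3% of genes held the word. The match of the let-7 seed (CTACCTC) and that of the miR-9 seed (ACCAAAG) each occurred in 1 of the 10, against 7.51% and 10.1% of genes.

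The sites of the genes whose Ago enrichment varied most, or that are best known as cell cycle targets, are shown as windows of 30 bases on the mRNA strand, with the match in capitals. Cdkn1a and Lats2 each held 2 matches, and the single match of Rbl2 ended close to the 3′ end of its transcript.
Cdkn1a, 8-base match, chr17:29237424-29237453, plus strand: gttgaataccgtgggtgtcaaAGCACTTAg
Cdkn1a, 7-base match, chr17:29236752-29236781, plus strand: gggtgatcctcagacctgaatAGCACTTtg
Rbl2, 8-base match, chr8:93647708-93647737, plus strand: aatatgtgtatttttcaataaAGCACTTAt
Lats2, 8-base match, chr14:58309922-58309951, minus strand: aaattagtacagtatggaaagAGCACTTAt
Lats2, 7-base match, chr14:58309823-58309852, minus strand: tccatgtgtgttgtatctgatAGCACTTgt
Rhoc, 7-base match, chr3:104597228-104597257, plus strand: gccttccccatattacacaccAGCACTTta
Casp2, 7-base match, chr6:42231536-42231565, plus strand: ccatatgtgatataacctagaAGCACTTgt
Ei24, 7-base match, chr9:36587472-36587501, minus strand: gagttttccagctgtttttttAGCACTTgc

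Of the 16 probes, 11 lay in the 3′ UTR that was searched. A Rhoc probe covered the match itself, and the Cdkn1a probe ended 9 bases before the 8-base match. Those of Casp2 and Lats2 lay 804 and 959 bases from the nearest match. Of the other 5 probes, those of Tgfbr2 and Mbd2 lay in the coding sequence. A further 2, of Cdkn1a, lay in the 5′ UTR of alternative transcripts, 1 of them reaching into the coding sequence. The last, of Lats2, lay in the coding sequence of short transcripts that lack the 3′ UTR shown here.

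**Figure D1:**
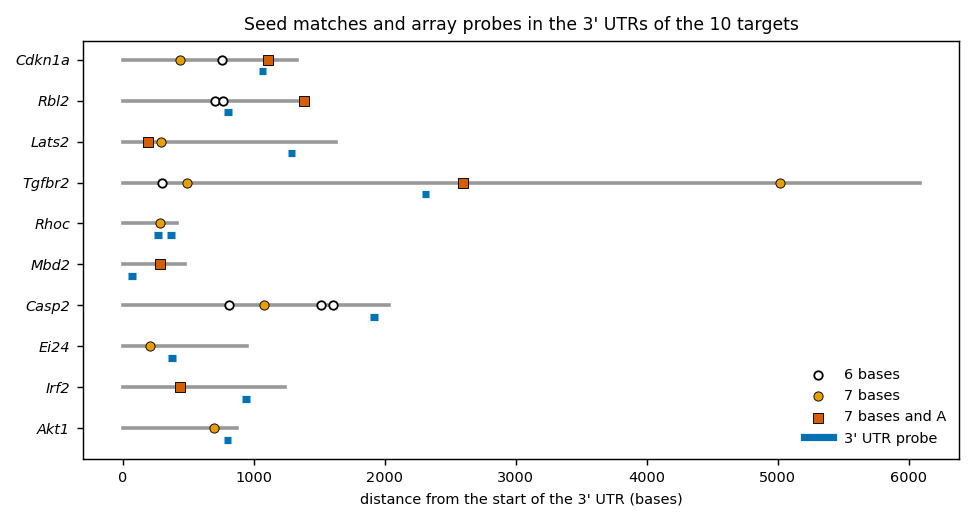
The 3′ UTR of each target (grey line) by distance in bases from its start, with 6-base matches GCACTT as open circles, 7-base matches as filled circles, 7-base matches followed by A as squares, and the array probes in that 3′ UTR as blue bars. Every target has at least 1 filled mark, and Tgfbr2, whose 3′ UTR is 6081 bases long, has 3.

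Ago enrichment (E) is the log2 of a probe's Ago-RNA signal over its total RNA signal at a stage, after quantile normalization over the 8 arrays, so an E of 1 means a signal 2 times as high in Ago-RNA. Technical error was taken from 399 probes printed at least 10 times on each array. The SD between spots of a probe was 0.129 for E in ES and NPC/Neu, 0.151 in ELA and 0.134 in NPC, and the SD of a difference of E between stages was between 0.18 and 0.21. These SDs measure spot error within an array, not variation between cultures. Below, a value past 2-fold is at least 1 or at most -1 on the log2 scale, and counts of genes use the mean over a gene's probes that were well above background on at least 1 of the arrays compared. The share of all genes past the same limit is given beside the counts. The stage markers followed the labels in total RNA: all 6 ES markers were highest in ES, all 4 ELA markers in ELA and the 3 neuronal markers found on the array in NPC/Neu, while of the 4 NPC markers Hes5 was highest in NPC and Sox1, Pax6 and Nes in NPC/Neu. Of 6 mesendoderm markers, 2 were highest in each of ELA, NPC and NPC/Neu. In NPC/Neu, Foxa2, Eomes and T had log2 signals of 11.24, 12.69 and 9.31, and Sox17, Gata4 and Gata6 had 7.30, 6.98 and 6.78. Gata4 was not well above background there, and Gata6 was not on any total RNA array. Whether the cultures held mesendoderm cells, and their part in the results below, was not tested. In bulk RNA, fewer cells that express a gene and less RNA per cell cannot be told apart.

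Median Ago enrichment of the 10 targets was higher in ELA than at the other stages, though not in every gene. The median E over the 10 genes was 0.33 in ES, 1.01 in ELA, 0.32 in NPC and 0.21 at NPC/Neu, where scaling to the 75th percentile gave -0.036. The median over all genes tested stayed between -0.04 and 0.05. In ELA, 5 of 10 targets (Rhoc, Rbl2, Cdkn1a, Casp2 and Ei24) had an E of at least 1, against 4.23% of all genes, and Tgfbr2 lay just below the limit at 0.996. In NPC there were 3 of 10 (Rhoc, Tgfbr2 and Rbl2), against 5.71%. In ES and in NPC/Neu there was none, while 9.7% and 11.6% of all genes passed the limit. The ES count depended on the probes: without the 3 probes that lie outside the long 3′ UTR transcripts, 2 of 10 targets (Cdkn1a and Lats2) had an E of at least 1 in ES. No target had an E of -1 or less at any stage, where 11.2%, 3.98%, 6.19% and 12.4% of all genes did in ES, ELA, NPC and NPC/Neu. The highest E of a gene was found in ELA for 4 targets, in NPC for 3, in ES for 2 and in NPC/Neu for 1, so the targets did not follow 1 time course. Of 20701 genes tested at every stage, 27.3% had their highest E in ELA, 18.7% in NPC, 26.8% in ES and 27.2% in NPC/Neu, and with 10 targets the counts lie near these shares.

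**Figure D2:**
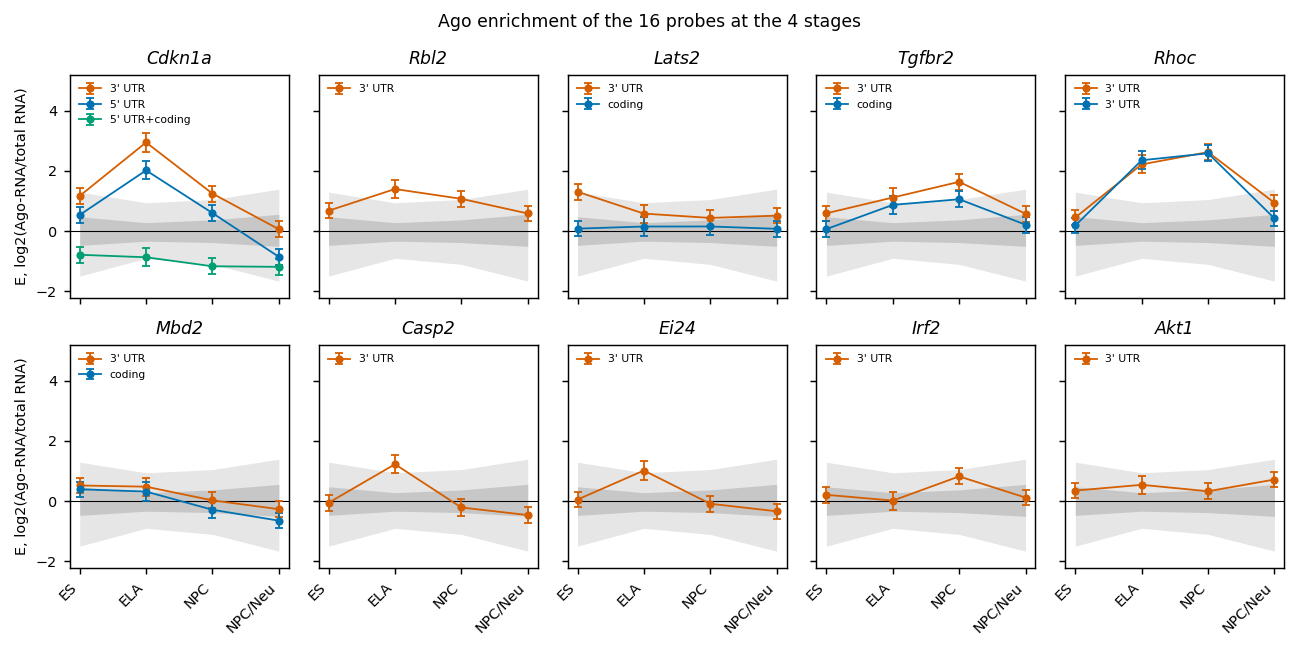
Ago enrichment E, log2 of Ago-RNA over total RNA, of each of the 16 probes at the 4 stages, 1 panel per gene. Bars are 2 SD between repeated spots, and the dark and light grey bands hold the middle 50% and 90% of all genes tested. The curves of Casp2, Ei24 and the 3′ UTR and 5′ UTR probes of Cdkn1a peak in ELA, while those of Rhoc and Tgfbr2 peak in NPC. The remaining Cdkn1a curve lies below 0 at all 4 stages.

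Cdkn1a encodes p21, an inhibitor of cyclin-dependent kinases. Its 3′ UTR probe was printed 10 times on each array. The log2 Ago-RNA signal over these spots was 12.93 ± 0.09 in ES, 14.76 ± 0.11 in ELA, 14.07 ± 0.09 in NPC and 13.63 ± 0.10 at NPC/Neu (mean ± SD between 10 spots). The log2 total RNA signal was 11.76 ± 0.09, 11.81 ± 0.11, 12.82 ± 0.12 and 13.56 ± 0.10 in the same order, with 9 spots on the last array. Total RNA was thus close to level between ES and ELA, with a difference of 0.06 ± 0.04 between spots, while Ago-RNA was 1.83 ± 0.02 higher in ELA. E was 1.17 in ES, 2.95 in ELA, 1.25 in NPC and 0.07 at NPC/Neu, and the spots of ELA, from 2.89 to 3.03, did not overlap those of any other stage. An E of 2.95 is a ratio of 7.71, the highest of all 16 probes. From ELA onward the ordering was the opposite, with total RNA higher by 1.00 in NPC and by a further 0.74 in NPC/Neu while Ago-RNA was lower at each step, by 0.69 and 0.44.

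**Figure D3:**
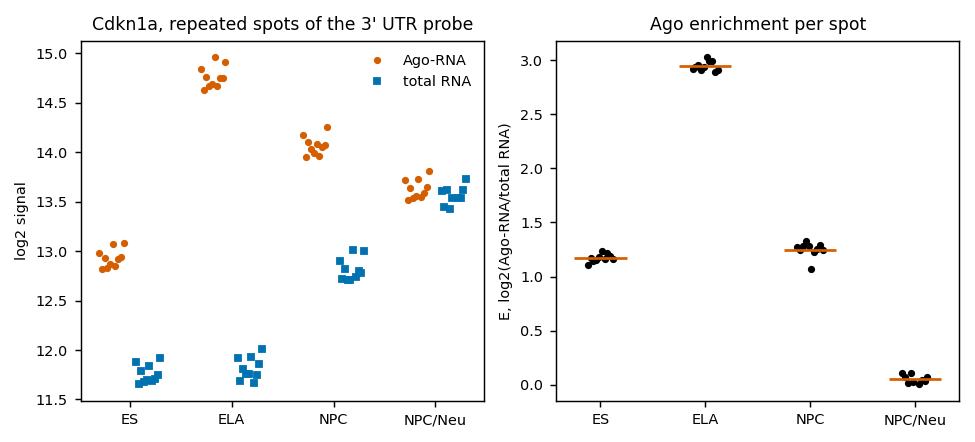
Log2 signal of each repeated spot of the Cdkn1a 3′ UTR probe on the Ago-RNA and total RNA arrays (left) and Ago enrichment per spot with its mean as a line (right), by stage. In the right panel the spots of ELA lie between 2.89 and 3.03 and those of NPC/Neu between 0.00 and 0.11.

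The 2 other Cdkn1a probes each matched an alternative transcript. The probe in the 5′ UTR of an alternative transcript had log2 total RNA signals of 8.11, 8.35, 9.50 and 9.80 in ES, ELA, NPC and NPC/Neu and E of 0.54, 2.02, 0.60 and -0.85. Its course had the same shape as that of the 3′ UTR probe, at a lower E. The remaining probe, at the start of the coding sequence of another transcript, was not well above background on any Ago-RNA array, and its total RNA signal was at least 1.60-fold above that of Ago-RNA at every stage. The mean over the 3 probes, which enters the counts of genes, was therefore lower than the 3′ UTR probe, with 1.37 in ELA.

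Rbl2 encodes p130, a pocket protein that represses E2F target genes. Its log2 total RNA signal was low, with 7.68 in ES, 7.33 in ELA, 7.89 in NPC and 8.34 at NPC/Neu. E was 0.68, 1.40, 1.08 and 0.59 in the same order, above 0 at every stage by more than 2 SD between spots and highest in ELA.

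Lats2 encodes a kinase of the Hippo pathway that also restrains entry into S phase. Its E was highest in ES, unlike that of Cdkn1a. The 3′ UTR probe had log2 total RNA signals of 9.23 in ES, 9.98 in ELA, 11.74 in NPC and 11.03 at NPC/Neu, and Ago-RNA signals of 10.54, 10.57, 12.18 and 11.55. E was 1.31 in ES, the highest of all 16 probes at that stage, and 0.59, 0.44 and 0.52 afterwards. Ago-RNA was level from ES to ELA, with a difference of 0.03, while total RNA was higher by 0.75. The probe of the short transcripts had E between 0.08 and 0.16 at all 4 stages, within 2 SD between spots of 0.

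Rhoc, a small GTPase that promotes cell motility, had the largest differences of E at the ES-ELA and NPC-NPC/Neu transitions among the 10 genes, as means over probes. Over the 4 stages, E of the 3′ UTR probe of Cdkn1a spanned more, 2.88 against 2.17 and 2.39 for the Rhoc probes. Both of its probes lie in the 3′ UTR and had the same course. The probe over the seed match had log2 Ago-RNA signals of 13.22 in ES, 15.25 in ELA, 15.73 in NPC and 12.84 at NPC/Neu, against total RNA signals of 13.03, 12.90, 13.14 and 12.42. Its E was 0.19, 2.35, 2.59 and 0.42. The other probe had E of 0.46, 2.22, 2.62 and 0.94. Both were high in ELA and NPC and low in ES and NPC/Neu, while total RNA of both probes varied by at most 0.72 over the 4 stages.

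By the thresholds of the study's methods (Ago-RNA above the binding threshold of 7.82, E of at least 2 at 1 stage and at most 0.5 at the other, and a variation of at least 1.5), both Rhoc probes were loaded on Ago at the ES-ELA transition, where 0.302% of bound probes were. The probe over the match was released at the NPC-NPC/Neu transition, as were 0.0655% of bound probes. No other target met the criteria at any of the 3 transitions. The methods relax the limit of 0.5 to 1.2 for later analyses. With that limit, applied here after the values had been seen, the Cdkn1a 3′ UTR probe was also loaded at the ES-ELA transition (0.388% of bound probes) and the second Rhoc probe also released at the NPC-NPC/Neu transition (0.123%).

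Tgfbr2, the type II receptor for TGF-beta, was most enriched in NPC. The 3′ UTR probe had log2 total RNA signals of 8.77 in ES, 9.61 in ELA, 9.05 in NPC and 10.19 at NPC/Neu and E of 0.60, 1.12, 1.64 and 0.58. Its Ago-RNA signal was almost level from ELA on, at 10.73, 10.68 and 10.77, so the variation of E between these stages followed total RNA. The dimmer coding probe had E of 0.07, 0.87, 1.06 and 0.22, also with the highest value in NPC, where its total RNA was not well above background and Ago-RNA was at least 2.09-fold higher.

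Casp2, a caspase that responds to DNA damage, and Ei24, a p53-induced gene linked to apoptosis and autophagy, had an E above 0 by more than 2 SD between spots in ELA alone. With Ago-RNA and total RNA arrays normalized separately, E was also above 0 by as much in ES, at 0.41 for Casp2 and 0.53 for Ei24, and in NPC for Ei24, at 0.38, and was still highest in ELA for both. Casp2 had log2 total RNA signals of 13.70, 13.94, 14.87 and 14.90 in ES, ELA, NPC and NPC/Neu and Ago-RNA signals of 13.65, 15.17, 14.66 and 14.44. Its E was -0.05, 1.23, -0.21 and -0.46. Ei24 had E of 0.05, 1.02, -0.08 and -0.33, with total RNA signals of 11.92, 11.37, 11.92 and 12.10. In both genes E in ELA exceeded that of each other stage by more than 4 times the SD between spots of such a difference.

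Mbd2, which binds methylated CpG and recruits repressor complexes, had an E that was higher early than late. The 3′ UTR probe had E of 0.52 in ES, 0.48 in ELA, 0.03 in NPC and -0.26 at NPC/Neu, and the coding probe had 0.40, 0.32, -0.28 and -0.64. Total RNA of the 3′ UTR probe was 11.05, 9.85, 10.71 and 11.83, lowest in ELA, and the coding probe, at 10.14, 9.62, 10.69 and 10.79, was also lowest there.

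Irf2, a transcription factor of the interferon pathway, and Akt1, a kinase of the survival pathway, differed more in total RNA than in E. Irf2 was not well above background in ES total RNA, at 6.74, and its signals were 7.47 in ELA, 8.77 in NPC and 8.97 at NPC/Neu, at least 4.68-fold above ES at the last stage. Its E was 0.02 in ELA, 0.82 in NPC and 0.12 at NPC/Neu. Akt1 had total RNA signals of 13.49, 13.71, 14.98 and 15.38 and E of 0.35, 0.55, 0.33 and 0.72, positive at every stage by more than 2 SD between spots and never past 2-fold.

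**Figure D4:**
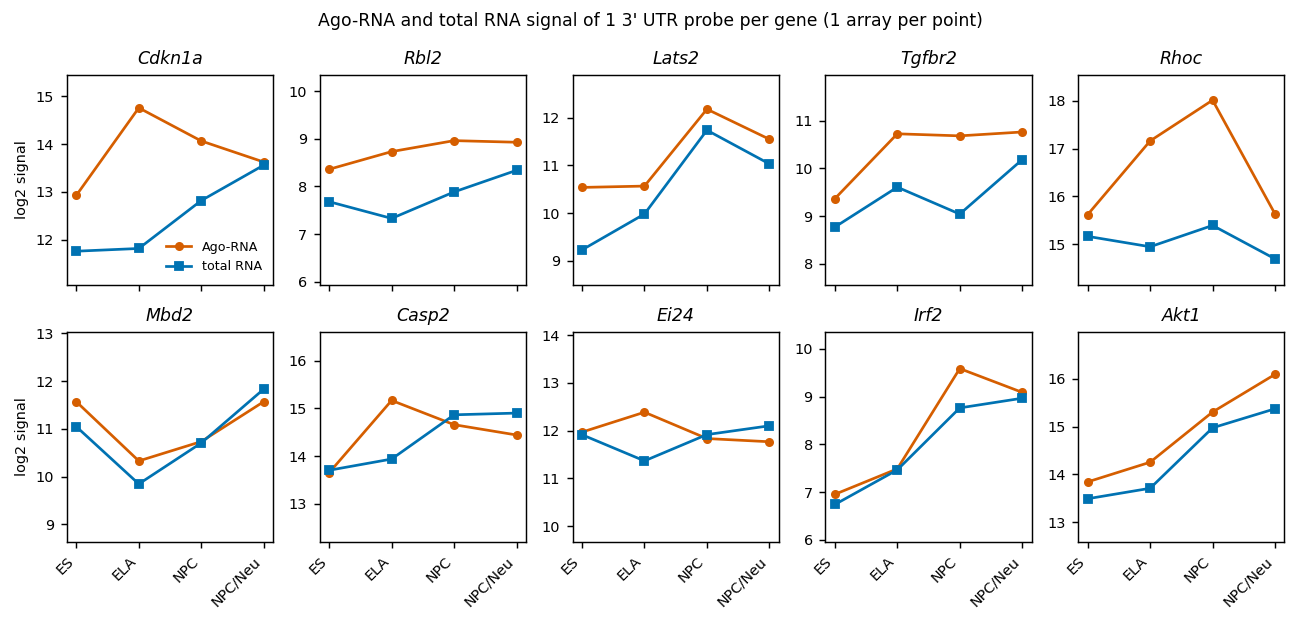
Log2 signal of Ago-RNA (circles) and total RNA (squares) at the 4 stages for 1 3′ UTR probe of each target, the brighter in ES where there are several, on y axes of equal span. The gap between the curves is E, and it is widest in ELA for Cdkn1a, Casp2 and Ei24, in NPC for Rhoc and in ES for Lats2.

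Between stages, the median difference of E was largest at the ES-ELA transition. The median variation over the 10 genes was 0.69, against -0.02 over all genes. Above 0 were 7 of 10, against 48.3% of all genes. Past 2-fold were 3 of 10 (Rhoc with 1.96, Casp2 with 1.28 and Cdkn1a with 1.06), against 7.52% of all genes, and none was at -1 or less, against 6.53%. At the ELA-NPC transition the median was -0.27, with Casp2 at -1.44, Cdkn1a at -1.14 and Ei24 at -1.10, so 3 of 10 were at -1 or less against 3.75% of all genes, and none was at 1 or more against 3.07%. At the NPC-NPC/Neu transition the median was -0.41, and 9 of 10 were at or below 0, while 51.8% of all genes were above 0. There Rhoc alone passed 2-fold as a gene mean, with -1.92. The shares of all genes were 4.61% at -1 or less and 2.71% at 1 or more. By probe, the 3′ UTR probes of Cdkn1a and Tgfbr2, at -1.18 and -1.06, also passed it. So did the 5′ UTR probe of Cdkn1a, at -1.45, while the remaining probes of these genes did not. Consecutive transitions share the arrays of the stage between them, so a high E in ELA adds to the first difference and takes from the second.

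The median total RNA change of the targets was near 0 between ES and ELA and above 0 from ELA to NPC. The median change over the 10 genes was 0.12 from ES to ELA, with Mbd2 lowest at -0.86 and Irf2 highest at 0.73. No target passed 2-fold there, against 5.04% of all genes upward and 4.86% downward. From ELA to NPC the median was 0.94 against 0.00 over all genes. Above 0 were 9 of 10 targets, against 49.7% of all genes, and Tgfbr2 was lower, at -0.38. Lats2 with 1.39, Irf2 with 1.30 and Akt1 with 1.27 passed 2-fold, 3 of 10 against 10.8% of all genes, and none was at -1 or less, against 10.3%. The count lay close to the limit: Mbd2, Cdkn1a and Casp2 were at 0.97, 0.95 and 0.93. The scanner software's processed signal with quantile normalization gave 6 of 10, and the share of all genes under that setting is not given. From NPC to NPC/Neu the median was 0.19 and none passed 2-fold, against 5.78% upward and 4.13% downward. Lats2 at -0.83 and Rhoc at -0.71 were the only targets below 0, while 46.2% of all genes were above 0.

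From ES to NPC/Neu, 9 of 10 targets had more total RNA, against 46.9% of all genes, and Rhoc had less, at -0.54. The median was 0.71 against -0.06 over all genes. Irf2 with 2.23, Akt1 with 1.89, Cdkn1a with 1.25 and Casp2 were past 2-fold, 4 of 10 against 16.6% of all genes, and none was at -1 or less, also 16.6% of all genes. Total RNA was highest in NPC/Neu for 8 of the 10 and lowest in ES for 6. The shares of all genes with these stages were not counted, so these counts have no reference.

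**Figure D5:**
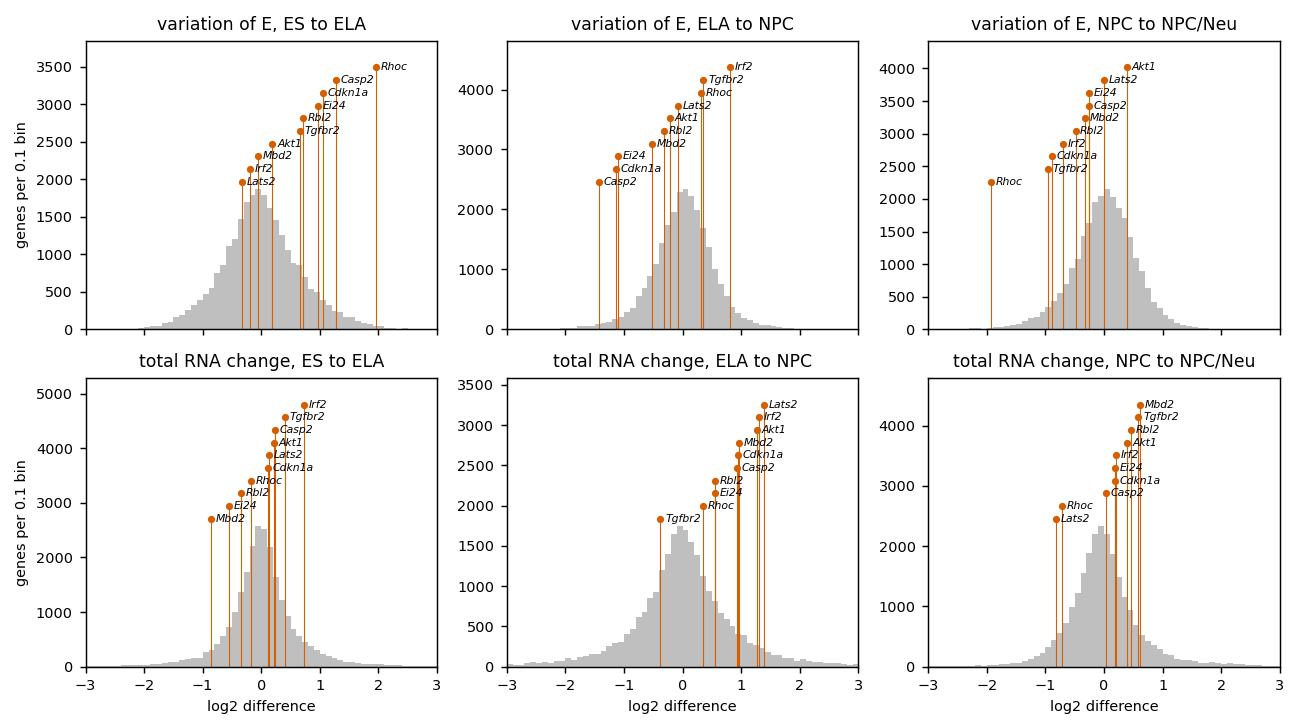
Variation of E (top) and change of total RNA (bottom) at the 3 transitions, log2 scale, as histograms of all genes tested in bins of 0.1 with the 10 targets as labelled points; heights of the points only separate the labels, and values beyond 3 are not drawn. In the ES-ELA panel Rhoc is farthest right at 1.96, and in the ELA-NPC panel of total RNA every target except Tgfbr2 is right of 0.

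Genes with related roles were compared in the same way. Among 22 paralogs of the targets, such as Cdkn1b, Rbl1, Lats1 and Rhoa, the median E in ELA was 0.10, and 2 of 22 passed 2-fold, Irf1 with 2.57 and Mbd1 with 1.34, against 4.23% of all genes. The median variation of the paralogs at the ES-ELA transition was -0.18, with 6 of 22 above 0, against 48.3% of all genes. Rhoa and Rhob, the closest relatives of Rhoc, had E of 0.06 and 0.85 in ELA, against 2.29 for Rhoc. Cdkn1b and Cdkn1c had 0.13 and -0.06, against 1.37 for Cdkn1a. Other pairs went the other way. Irf1 and Mbd1, with 2.57 and 1.34, were above Irf2 and Mbd2, with 0.02 and 0.40. Lats1, with 0.45, was above Lats2, with 0.37. The difference between targets and paralogs was not tested, and with 1 array per group it has no replicate check.

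The pathways around the targets were measured as well. Of 19 listed genes of the G1-S machinery, 18 were tested in ELA with a median E of 0.34, and E2f5 alone passed 2-fold, at 1.00, against the same 4.23% of all genes. From ELA to NPC their median total RNA change was 0.84, and 8 of 18 were higher past 2-fold, against 10.8% of all genes, among them Ccnd2, a D-type cyclin, with 4.79. Lower past 2-fold were 2 of the 18, Ccne1 with -1.52 and E2f4 with -1.57, against 10.3% of all genes. Of 12 Hippo genes tested, the median E was 0.44 in ES and 0.20 in ELA, and Yap1, the effector that Lats2 phosphorylates, had E of 1.58 in ES and -0.04 in ELA, lower in ELA as was that of Lats2. In ELA 2 of the 12 passed 2-fold, against 4.23% of all genes. They were Mobkl1b with 1.55, against 0.44 in ES, and Mobkl1a with 1.02, against 1.16 in ES. In ES 3 of the 12 passed 2-fold, Yap1, Mobkl1a and Tead1 with 1.42, against 9.7% of all genes. Of 11 TGF-beta genes, 10 had a positive E in ELA, against 46.8% of all genes, with a median of 0.51. Ski alone passed 2-fold, with 1.198, against 4.23% of all genes, and Tgfbr1, the partner receptor of Tgfbr2, had 0.48. The median variation of the 11 genes at the ES-ELA transition was -0.11, with 2 of 11 above 0, against 48.3% of all genes. Of 15 apoptosis genes, none had an E of at least 1 in ELA, against 4.23% of all genes, and the median was 0.03. Of 12 other genes reported as targets of the seed family, 10 were tested in ELA with a median E of 0.61. Tob2, Wee1 and Lefty1 passed 2-fold, with 2.03, 1.62 and 1.11, which is 3 of 10 against 4.23% of all genes. Their median E was higher in NPC, at 0.71. Their median variation at the ES-ELA transition was 0.07, with 7 of 12 above 0, against 48.3% of all genes. The ELA peak of the 10 targets was thus not seen in the median of this list.

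The seed word was also set against E over all genes with a mean total RNA signal above the binding threshold, the 10 targets left out. In ELA the median E was 0.26 in 1682 genes with the word and -0.04 in 10284 without, and 11.8% against 3.53% had an E of at least 1. Among genes with a 3′ UTR of the middle length class the shares were 19.6% and 3.63%, and among the longest class 9.90% and 4.33%. Over all lengths the medians with and without the word also stood apart at the other stages, at 0.37 and 0.12 in ES, 0.22 and 0.07 in NPC and 0.34 and 0.17 in NPC/Neu. Within the middle class they were 0.20 and -0.05 in ELA and 0.25 and 0.08 in NPC. In ES they were 0.22 and 0.11 there, and in NPC/Neu 0.19 and 0.17. The shares with an E of at least 1 in the middle class were 15.4% and 7.9% in NPC. They lay close together in ES, at 14.33% and 14.02%, and in NPC/Neu, at 15.36% and 15.32%. Within the longest class the medians were 0.27 and 0.10 in ELA and 0.43 and 0.38 in ES. They were 0.23 and 0.20 in NPC and 0.40 and 0.38 in NPC/Neu. The comparison words gave smaller differences in ELA in that class, 0.13 with and 0.15 without the let-7 word and 0.20 and 0.12 for the miR-9 word. In ES the miR-9 word differed more in that class, at 0.49 and 0.37, than the word of the ES cell seed family. Genes are not replicates, so these are descriptions of 8 arrays.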

How the data were processed

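Per the labels, Cy3-labeled cRNA was hybridized to Agilent SurePrint G3 Mouse arrays (mm9). The authors deposited the intensity of each spot as scanned with Feature Extraction (10.7.3.1 in the file headers, 9.1 in the submitters' processing notes), with no normalization between arrays. The labels and the methods differ in the amount of RNA labeled.

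Spot intensity was background corrected by normexp (offset 50) and then quantile normalized over the 8 arrays in limma 3.58.1 (R 4.3.3). Spots marked as irregular and control spots were left out, repeated spots were averaged, and no spot of a target was saturated. The binding threshold was set 3 SD above the mean of the lower component in a mixture of 2 Gaussians fitted to Ago-RNA signal (mclust 6.1.1). Between 53.4% and 61.2% of spots per array were well above background. The normalization was tested on data simulated from the ES total RNA array alone. These held no difference in distribution between Ago-RNA and total RNA arrays, so the scaling between these kinds of array was not tested. The targets, the gene lists and the limits were chosen with earlier results of these data known. Named genes are the 10 targets, listed genes past 2-fold in the comparison described and paralogs of a target described. Marker genes served as a check of the labels. Sequence words were counted with Python 3.11.15. Alternatives covered the background offset, the processed signal with 2 scalings, separate normalization of Ago-RNA and total RNA arrays, filters on dim probes, the choice of probe and the limits. Chosen after these values had been seen were the relaxed limit, the restriction to genes above the binding threshold, the removal of alternative transcript probes, the let-7 and miR-9 words and the removal of matches in a B1 repeat stretch.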

Additional observations from a re-analysis of the deposited data

Results flagged for a closer look

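The E of 5 probes was above 0 by more than 2 SD between spots at some stages and below 0 by as much at others. These differences were not tested, since each stage has 1 array of each kind. The Cdkn1a probe in the 5′ UTR of an alternative transcript had E of 0.541 in ES, 2.02 in ELA, 0.603 in NPC and -0.849 at NPC/Neu. Each of these signs was kept under the 4 other normalizations. Casp2 had E of 1.23 in ELA and -0.46 in NPC/Neu, and Ei24 had 1.02 and -0.33. The Mbd2 coding probe had E of 0.396 in ES, 0.321 in ELA, -0.283 in NPC and -0.644 at NPC/Neu, and the Mbd2 3′ UTR probe had 0.52 in ES, 0.48 in ELA and -0.26 in NPC/Neu. With Ago-RNA and total RNA arrays normalized separately, E in NPC/Neu was 0.20 for the Mbd2 3′ UTR probe, 0.14 for Ei24 and -0.08 for Casp2, and E in NPC was 0.10 for the Mbd2 coding probe. Of the values below 0 by more than 2 SD between spots, those of the Mbd2 3′ UTR probe, Ei24 and the Mbd2 coding probe in NPC thus had the other sign under that scaling, while Casp2 and the Mbd2 coding probe in NPC/Neu, at -0.28, did not.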

How the results depend on the processing

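No paired analysis was possible because each group has 1 array. Counts of targets in this section are given without the share of all genes under the same alternative. They show only how the counts moved. No value of a target past 2-fold changed sign under any alternative, and the median E in ELA (0.90 to 1.27) and the median variation at the ES-ELA transition (0.62 to 0.97) stayed above those of the other stages and transitions. Separate normalization of Ago-RNA and total RNA arrays moved the median E of all genes by 0.10 to 0.19 and that of the targets to 0.59 in ES, 1.27 in ELA, 0.60 in NPC and 0.36 at NPC/Neu, with 1 target past 2-fold in NPC/Neu and 1 higher at the ELA-NPC transition. Scaling the processed signal to the 75th percentile moved the median E of all genes by -0.35 to -0.14 and that of the targets to 0.19 in ES and, with a change of sign, -0.036 in NPC/Neu, and gave median variations of 0.97 (ES-ELA, 5 targets past 2-fold) and -0.59 (NPC-NPC/Neu, 3 lower past 2-fold), 1 target higher at the ELA-NPC transition in E, 5 higher in total RNA there, and 1 target past 2-fold in each of E in NPC/Neu (lower) and total RNA from ES to ELA (higher), NPC to NPC/Neu (lower) and ES to NPC/Neu (lower). The processed signal with quantile normalization gave 6 targets higher in total RNA from ELA to NPC, 3 lower in E from NPC to NPC/Neu, and 1 each for E in ES (higher), E in NPC/Neu (lower), E from ES to ELA (lower), total RNA from ES to ELA (higher) and from NPC to NPC/Neu (lower). The brightest probe of each gene gave median E of 0.49 in ES and 0.63 in NPC, a median total RNA change from ES to NPC/Neu of 1.30, 2 targets past 2-fold for E in ES and for total RNA from NPC to NPC/Neu, 3 lower in E from NPC to NPC/Neu and 1 lower in total RNA from ES to ELA. Without probes of alternative transcripts, chosen after seeing the data, these were 0.63 in NPC, 0.96 for total RNA from ES to NPC/Neu, 2 targets for E in ES and 2 lower in E from NPC to NPC/Neu. Only probes well above background on every array gave a median E of 0.58 in NPC, 3 targets lower in E from NPC to NPC/Neu and 1 higher in total RNA there, and an offset of 16 gave 2 lower in E there. A limit of 1.5 left 1 target each for E in ELA, E in NPC and E from ES to ELA, 0 for E and for total RNA from ELA to NPC, and 2 for total RNA from ES to NPC/Neu. An 8-base match was held by 6 targets, and the relaxed limit, added after seeing the data, gave 2 released probes from NPC to NPC/Neu. Words let-7 and miR-9, the limit to brighter genes and the count of matches outside a B1 repeat stretch were also added after seeing the data; the limit to brighter genes and the absence of a filter on dim probes moved none of the counts by over 1.5 times. With 1 array per group, the spread between cultures was not measured, and the dimmest probes, such as the coding probe of Tgfbr2, carry larger spot error, with an SD of up to 0.20 for E.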
